A study of Mus musculus with 4 samples.

Results

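Cells gated as resting double-positive thymocytes were compared between leukemic and WT mouse thymus in single-cell RNA-seq. These cells were defined by a gate on transcripts: at least 1 unique molecular identifier (UMI, a counted RNA molecule) of Cd4, at least 1 of Cd8a or Cd8b1, and fewer than 3 UMIs per 10000 in total of 6 cell cycle genes (Mki67, Top2a, Pclaf, Rrm2, Tyms and Birc5). The gate held 3656 of 17544 kept cells. Of these, 1679 were WT, 134 preleukemic, 1629 from T-ALL#1 and 214 from T-ALL#2. All 4 libraries were made from thymus of FVB/N mice. WT and preleukemic Tal1/Lmo2 mice were 6 weeks old, and the leukemic Tal1/Lmo2 mice, T-ALL#1 and T-ALL#2 (T-ALL is T-cell acute lymphoblastic leukemia), were 3 months old, with no drug treatment named in the labels. In the Tal1/Lmo2 line both transgenes are driven by the proximal Lck promoter, which is active in thymocytes, and viable single cells were sorted after red cell lysis. Each library came from 1 sample of thymus, so WT and preleukemic values have no replicate, and age cannot be told apart from the disease. The chemistry version of each library is not given in the sources used here. Cell Ranger version differed for T-ALL#2 alone and cannot be told apart from its differences from WT, whereas T-ALL#1 and WT shared 1 version.

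Thymocytes pass through a double-positive stage at which both coreceptors, CD4 and CD8, are on the surface. Large double-positive blasts divide, then become small resting cells that express the recombinase genes Rag1 and Rag2 and rearrange the T cell receptor alpha chain. Notch1 signaling drives the earlier double-negative stages and is turned down as normal cells become double-positive. Activated Notch1 is a common driver of T-ALL, and its direct targets include Hes1, Dtx1, Heyl and Ptcra.

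The gate rests on few molecules, and by Rag1 it separated double-positive cells less sharply in T-ALL#2 than in the other libraries. The share of gated cells that held exactly 1 UMI of Cd4 was 28.2% in WT (474 of 1679), 61.9% in the preleukemic library (83 of 134) and 70.6% in T-ALL#2 (151 of 214), and T-ALL#1 had 815 such cells of 1629. Rag1, a marker that the gate did not use, was at 1293 CPM (UMIs scaled to a total of 1000000) in gated WT cells against 135 in the other resting WT cells, a ratio of 9.57. In T-ALL#1 the corresponding levels were 453 and 158 CPM. In T-ALL#2 they were 54.2 and 27.7 CPM, with 15.98 CPM in its empty droplets, barcodes of fewer than 100 UMIs that carry free RNA. Of the 14 double-positive genes listed, 14 in WT, 11 in the preleukemic thymus, 13 in T-ALL#1 and 13 in T-ALL#2 were higher in gated than in other resting cells by any amount, where 63.9%, 50%, 71.2% and 62.5% of all measured genes were. The median log2 difference was 1.72 in WT, 0.82 in the preleukemic thymus, 1.00 in T-ALL#1 and 0.73 for T-ALL#2. A Rag1 UMI was found in 59 of the 214 gated T-ALL#2 cells, so they are described as gated cells and not as double-positive cells.

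The gated cells made up 39.8% of kept WT cells (95% interval 38.3 to 41.3), 2.40% of preleukemic cells (2.02 to 2.84), 28.2% of cells in T-ALL#1 (27.1 to 29.4) and 10.8% of those in T-ALL#2 (9.50 to 12.3). These exact Clopper-Pearson intervals cover counting error only. Depth differed, with a median of 2698, 4787, 4695 and 8510 UMIs per gated cell in that order, and a deeper cell passes a gate of single UMIs more easily. The cell cycle limit is a rate, so a deeper cell could hold a cell cycle UMI and still pass. Cells without any cell cycle UMI were 1527 of the 1679 gated WT cells, 1051 of 1629 in T-ALL#1 and 82 of 214 in T-ALL#2. The resting limit was thus less strict in the leukemias, most of all in T-ALL#2. After every cell was thinned to 2000 UMIs and gated again, the shares were 26.2% (846 of 3229 cells), 1.17% (61 of 5226), 14.3% (813 of 5679) and 2.08% (41 of 1975). Thinning left out 991 WT cells, 350 preleukemic cells and 94 T-ALL#1 cells with fewer UMIs, and none of T-ALL#2. WT kept the largest share and T-ALL#1 the next, while the preleukemic and T-ALL#2 shares were both low.

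Other features of the libraries bear on these values. At most 9 barcodes were shared between any pair of libraries. Of the cells with at least 4 B cell or 4 myeloid markers, 1 of 7 in WT, 0 of 23 in the preleukemic thymus, 1 of 15 in T-ALL#1 and 0 of 8 in T-ALL#2 fell in the gate, and none did after thinning. The 10 B cell markers summed to between 13.7 and 34.7 CPM in the gated cells, and the 10 myeloid markers to between 5.06 and 11.1 CPM. Between 0 and 6 of the B cell markers and between 0 and 8 of the myeloid markers were at 0 in a library. S100a8 and S100a9 were at 0 in 3 of the 4 libraries and at 0.359 CPM each in WT. The 10 gamma-delta and NKT markers summed to 111 CPM in WT, 1294 in the preleukemic thymus, 99.3 in T-ALL#1 and 306 in T-ALL#2, and the part of such cells in the results was not tested. Xist was at 1486 CPM in the WT library and Ddx3y, Eif2s3y, Kdm5d and Uty at 0, although its label says male. The preleukemic library showed the same mismatch, with Xist at 1857 CPM. T-ALL#2 alone held Y-linked RNA, with Ddx3y at 66.0 CPM and Xist at 0, so sex cannot be told apart from differences between T-ALL#2 and WT.

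Most genes that normally define the resting double-positive stage were at lower levels in both leukemias than in WT, and more so in T-ALL#2. The fixed list held 14 such genes that are reported here, of which 12 had a mean of at least 50 CPM over WT, T-ALL#1 and T-ALL#2. At least 4-fold lower levels than in WT were found for 2 of 12 in T-ALL#1, where 1.38% of all 3120 measured genes passed this limit, and for 9 of 12 in T-ALL#2, where 5.48% of all measured genes did. Genes such as Rag2 and Ccr9 reached the mean of 50 CPM through WT, where they are high, so these counts and the median are descriptions and no support by themselves. Without that filter, all of the 14 genes but Aqp11 and Mns1 were below WT in T-ALL#1, and all but Mns1 in T-ALL#2. The median of all measured genes was also below WT in both, and the share of all genes below WT is not given. This count by any amount is thus a description too. No measured member was 4-fold higher in either leukemia, against 1.7% and 1.25% of all measured genes. The median log2 ratio of the list to WT came to -0.94 for T-ALL#1 and -2.33 for T-ALL#2, against -0.12 and -0.43 for all measured genes. Both comparisons share the one WT library. In the quasi-likelihood test of edgeR, which treats the 2 leukemias as replicates and has 1 residual degree of freedom, 1 of the 12 genes (Ccr9) passed an adjusted p of 0.05 as lower, where 0.321% of all genes did.

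Among the recombinase genes, Rag1 (chr2:101638282-101649501, GRCm38) was at 1293 CPM in WT and 402 in preleukemic cells, against 453 in T-ALL#1 and 54.2 in T-ALL#2. Rag1 thus lay 2.86-fold below WT in T-ALL#1 (95% counting interval 2.75 to 2.97) and 23.9-fold below in T-ALL#2 (19.9 to 28.8), with an edgeR adjusted p of 0.476. Its partner Rag2 (chr2:101624718-101632529) was at 151, 43.0, 18.1 and 2.28 CPM in the same order. Rag2 was thus 8.35-fold lower in T-ALL#1 (7.08 to 9.90) and 66.5-fold in T-ALL#2 (28.4 to 205), where only 5 UMIs were counted. The 2 recombinase genes differed in how far they were reduced in T-ALL#1. For both genes the leukemias lay far apart from each other, and the edgeR adjusted p for Rag2 was 0.298.

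Ccr9, the receptor for the thymic chemokine CCL25, was the list member with the largest difference in T-ALL#1. It stood at 1463 CPM in WT and 1535 in the preleukemic thymus, and at 58.8 in T-ALL#1 and 34.1 for T-ALL#2. The level was 24.9-fold lower in T-ALL#1 (22.8 to 27.2) and 42.8-fold in T-ALL#2 (34.1 to 54.5), and edgeR called it lower (log2 difference -4.75, adjusted p = 0.00719). Both leukemias were low and both 6-week libraries high. In T-ALL#1 the other resting cells held more Ccr9 than the gated cells, at 120 CPM.

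The chromatin organizer Satb1 was at 3212 CPM in WT and 1724 in preleukemic cells, against 1327 in T-ALL#1 and 515 in T-ALL#2. Bcl2l1, which encodes the anti-apoptotic protein Bcl-xL of double-positive cells, was at 132, 27.8, 76.2 and 26.4 CPM. For Bcl2l1, T-ALL#1 lay between WT and the other libraries.

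Themis, a signaling protein of positive selection, was at 727 CPM in WT and 721 in preleukemic cells, against 452 in T-ALL#1 and 284 in T-ALL#2. Arpp21, an RNA-binding protein gene typical of this stage, was at 850, 549, 522 and 193 CPM, and Plxnd1, a guidance receptor of double-positive cells, at 134, 0, 41.7 and 1.37. Plxnd1 was listed at 3 UMIs in T-ALL#2 and at 0 in the preleukemic thymus, where a count of 0 allows up to 3.80 CPM. Members that went the other way were Aqp11, 2.08-fold above WT in T-ALL#1 (1.84 to 2.36) and 2.75-fold below in T-ALL#2 (2.03 to 3.80), and Mns1, which was 1.31-fold and 1.29-fold above. The levels of the 14 genes are plotted by library.

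**Figure D1:**
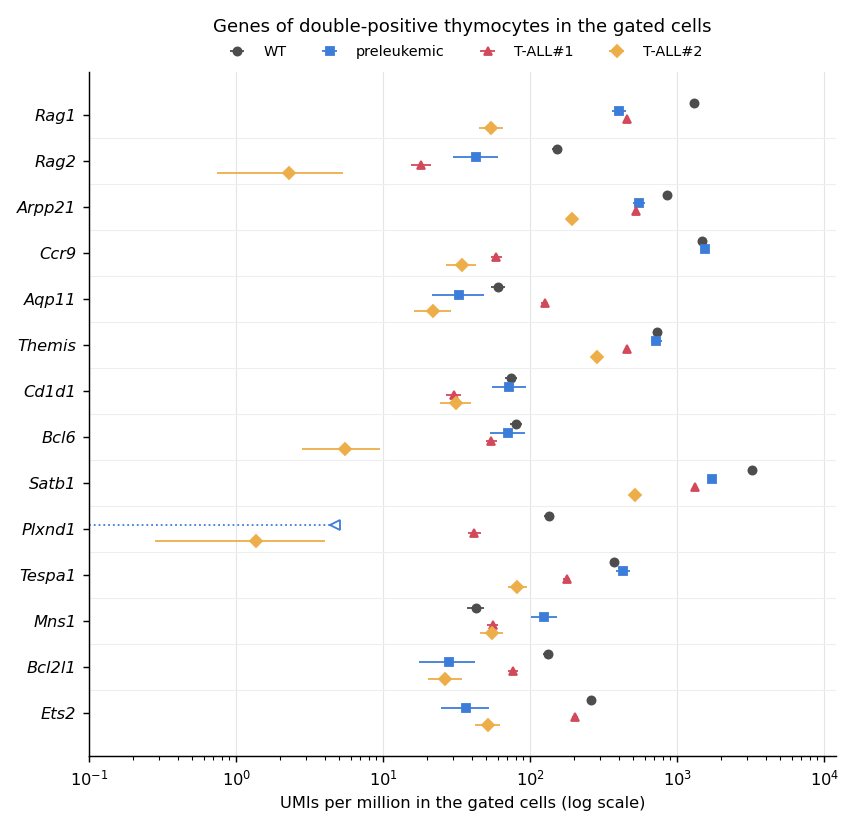
Levels of 14 genes of double-positive thymocytes in the gated cells of each library, in CPM on a log axis, with exact Poisson 95% intervals; an open arrowhead marks the upper end of the interval where the count was 0. T-ALL#2 lies below WT for every gene but Mns1, and Ccr9 separates both leukemias from WT and the preleukemic library.

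The gated WT cells were not uniform. Of the 1679 cells, 1285 held a UMI of Rag1 and 394 did not. Bcl2, the anti-apoptotic gene that is low at the resting double-positive stage and returns with selection, was at 87.7 CPM in the WT cells with Rag1 and at 441 CPM in those without. Ccnd2, the gene of cyclin D2, stood at 129 and 754 CPM, the surface antigen gene Cd52 at 807 and 2219 CPM, and the interferon-induced Ifi27l2a at 145 and 1014 CPM in the same order. The WT cells without Rag1 were thus close to the other resting WT cells, which held 473, 797, 2344 and 1020 CPM of these genes. This split used Rag1, and its values are a description.

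In the leukemias these genes were low on both sides of the split. Bcl2 was at 11.9 CPM in the T-ALL#1 cells with Rag1 and 24.6 in those without, and at 6.68 and 14.4 CPM in T-ALL#2. Ccnd2 was at 2.97 and 10.6 CPM in T-ALL#1 and at 0 and 13.1 CPM in T-ALL#2. The Rag1 cells numbered 1266 of 1629 in T-ALL#1 and 59 of 214 in T-ALL#2. Ifi27l2a was at 7.91 CPM in T-ALL#1 and 8.35 CPM in T-ALL#2 in the cells with Rag1, against 145 in such WT cells. Among cells with Rag1 both leukemias were thus over 4-fold below WT for Bcl2, Ccnd2 and Ifi27l2a, a smaller difference for Bcl2 and Ifi27l2a than over all gated cells.

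**Figure D2:**
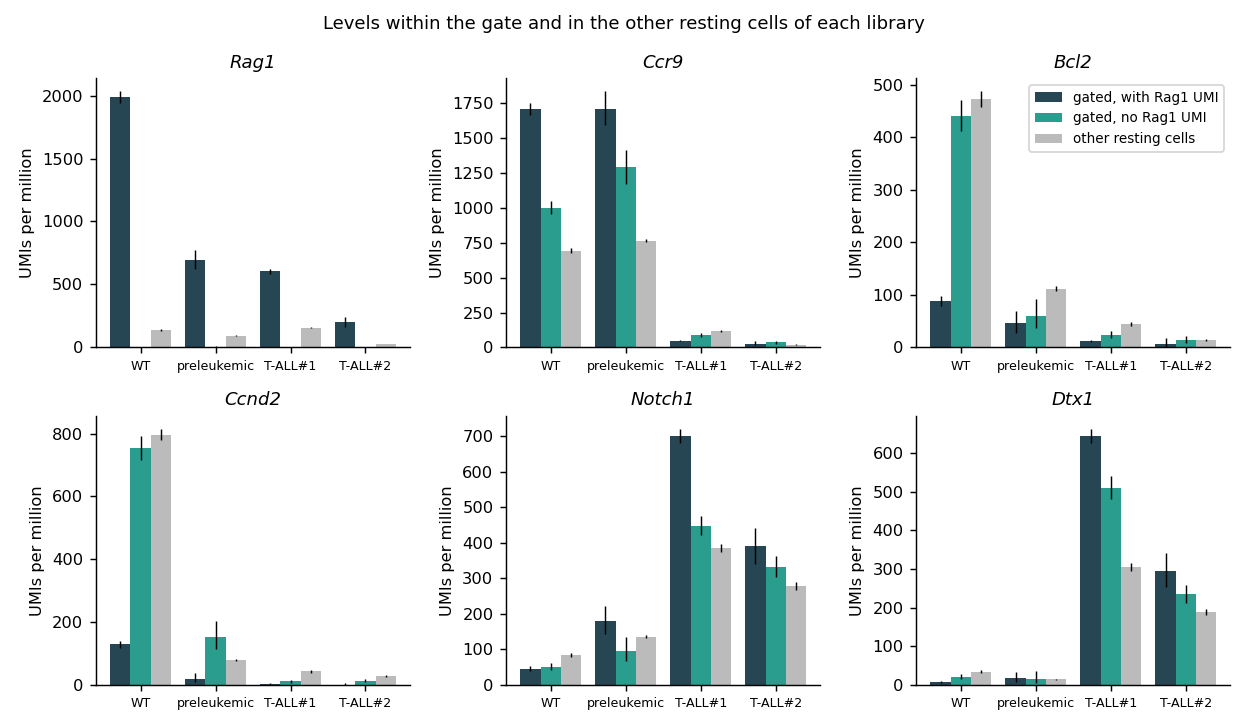
Levels of 6 genes in gated cells with a UMI of Rag1, in gated cells without one, and in the other resting cells of each library, as bars from 0 in CPM with exact Poisson 95% intervals. Bcl2 and Ccnd2 are high in WT cells outside the Rag1 subset and low in all subsets of both leukemias, while Notch1 and Dtx1 are high in all subsets of both leukemias.

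The number of Cd4 UMIs also divided the gated cells. In WT, Rag1 was at 1035 CPM in cells with 1 UMI of Cd4 and 1379 CPM in cells with 2 or more. In T-ALL#1 the levels were 396 and 510 CPM, and in T-ALL#2 51.8 and 60.4 CPM. Dtx1 was at 9.29 and 11.5 CPM in the same WT subsets, at 595 and 627 in T-ALL#1 and at 225 and 315 in T-ALL#2. The separation of the leukemias from WT in Dtx1 was present in both subsets. At the cell cycle limit, the 83 WT cells just inside (2 to 3 UMIs per 10000) held 1077 CPM of Rag1 and the 87 just outside (3 to 4) held 1956, and the 309 and 137 such cells of T-ALL#1 held 480 and 355 CPM. In T-ALL#2 the 40 cells just inside held 31.9 CPM and the 14 just outside 70.9 CPM.

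Several Notch pathway genes, among them the receptor gene Notch1 and its targets Dtx1 and Hes1, were at higher levels in the gated cells of both leukemias than in those of WT, while Notch2, Rbpj, Maml1 and Lfng were at lower levels. The list held 15 genes, and 5 reached a mean of 50 CPM (Notch1, Hes1, Dtx1, Ptcra and Il2ra). Each of the 5 did so through the leukemic libraries, so no count or median over them is given as support, and all 15 are given by their values. Gene by gene, edgeR called Notch1, Hes1 and Dtx1 higher, where it called 0.417% of all genes. Since the leukemic libraries brought these genes past the filter, no enrichment of the list is read from that share.

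Notch1 (chr2:26457903-26516663), which encodes the receptor, was at 47.2 CPM in WT and 144 in preleukemic cells, against 638 in T-ALL#1 and 347 for T-ALL#2. The T-ALL#1 level was 13.5-fold above WT (11.9 to 15.4) and that of T-ALL#2 7.37-fold above (6.39 to 8.51), with a log2 difference of 3.60 and an adjusted p of 0.0354 in edgeR. The preleukemic value lay between WT and both leukemias. Notch3, a second receptor and a Notch target, was at 7.35, 17.7, 70.4 and 29.1 CPM, and Notch2 at 8.97, 12.7, 3.07 and 2.28. The cofactor gene Rbpj was at 56.5, 58.2, 48.3 and 42.3 CPM, and the coactivator gene Maml1 at 26.2, 20.2, 16.96 and 9.56. The receptors Notch1 and Notch3 were thus higher in both leukemias, and the nuclear partners were not.

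The target genes Dtx1 and Hes1 differed from WT by more than the receptor did. Dtx1 (chr5:120680202-120711927), which encodes the ubiquitin ligase Deltex, was at 10.9 CPM in WT and 16.4 in preleukemic cells, against 611 in T-ALL#1 and 250 in T-ALL#2. This was 55.9-fold (43.4 to 73.2) and 22.9-fold (17.5 to 30.3) above WT, and edgeR gave a log2 difference of 5.50 with an adjusted p of 0.0354. The transcriptional repressor gene Hes1 (chr16:30064384-30067796) was at 4.66, 0, 298 and 127 CPM. The 26 Hes1 UMIs of WT lay in 3 cells, and the edgeR log2 difference was 5.71 (adjusted p = 0.0256). Neither gene reached 20 CPM in the preleukemic thymus, where a Hes1 count of 0 allows up to 3.80 CPM.

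Il2ra, which encodes the CD25 chain of the IL-2 receptor and marks double-negative thymocytes, was at 17.8 CPM in WT and 3.80 in preleukemic cells, against 500 in T-ALL#1 and 184 for T-ALL#2. The difference did not pass in edgeR (adjusted p = 0.0703), and 76.8% of the WT UMIs lay in 5 cells. Heyl, a Hes-related repressor gene, was at 0 in WT and in the preleukemic library and at 51.5 and 26.9 CPM in the leukemias, at least 95.8-fold and 49.9-fold above WT when a floor of 3 UMIs per library replaces the 0. Nrarp, a feedback inhibitor, was at 1.26, 2.53, 12.4 and 5.46 CPM, and Hes5 at 1.08, 0, 4.35 and 4.10. Myc was at 10.9, 13.9, 47.4 and 40.5 CPM, and Igf1r at 33.4, 2.53, 30.0 and 38.2. Lfng, which encodes the glycosyltransferase that modifies Notch receptors, went the other way at 30.1, 6.33, 0.954 and 0 CPM.

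Ptcra separated the leukemias from each other. It encodes the pre-TCR alpha chain, a Notch target of double-negative cells, and was at 16.3 CPM in WT and 5.06 in preleukemic cells, against 448 in T-ALL#1 and 8.65 in T-ALL#2. T-ALL#1 was 27.5-fold above WT (22.3 to 34.2), and T-ALL#2 1.89-fold below (1.14 to 3.28), where 19 UMIs were counted. The core motif of RBPJ, the DNA-binding partner of Notch, TGGGAA on both strands, was looked for in the 250 bases before each annotated start in the RefSeq promoters of mouse build GRCm38.p6. It lay in 21.6% of all 32851 windows and in 5 of the 13 windows found for 12 of the 15 Notch pathway genes. The windows of Ptcra, which differed between the leukemias, Dtx1, which was high in both, and Rag1, which was low in both, are shown with motif matches in capitals, each 5′ to 3′ along the gene.
Ptcra (chr17:46763713-46763962, - strand): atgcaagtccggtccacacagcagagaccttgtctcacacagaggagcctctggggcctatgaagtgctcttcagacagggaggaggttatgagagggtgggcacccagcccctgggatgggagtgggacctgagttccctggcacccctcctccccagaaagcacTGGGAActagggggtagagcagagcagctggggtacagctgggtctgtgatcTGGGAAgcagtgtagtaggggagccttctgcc
Dtx1 (chr5:120711670-120711919, - strand): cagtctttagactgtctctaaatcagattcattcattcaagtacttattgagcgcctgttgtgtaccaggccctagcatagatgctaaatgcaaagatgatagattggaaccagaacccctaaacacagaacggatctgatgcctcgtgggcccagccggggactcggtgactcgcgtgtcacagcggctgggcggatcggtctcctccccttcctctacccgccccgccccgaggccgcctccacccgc
Rag1 (chr2:101649533-101649782, - strand): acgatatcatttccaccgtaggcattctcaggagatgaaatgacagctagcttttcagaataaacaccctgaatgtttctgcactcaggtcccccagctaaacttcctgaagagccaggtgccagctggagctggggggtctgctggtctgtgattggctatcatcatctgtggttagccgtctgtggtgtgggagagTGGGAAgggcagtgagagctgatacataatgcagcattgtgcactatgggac
Ptcra held 2 matches, whose first bases lay 84 and 32 bases before the start. Rag1 held 1 match at 52 bases before the start, and Dtx1, Notch1 and Il2ra held none in this window, nor did Rag2 and Ccr9. The Dtx1 and Notch1 windows lie before RefSeq starts but inside the GENCODE gene spans given above. Hes1 and Heyl had no window, so nothing was seen of their upstream sequence. Of the 28 windows of the double-positive genes, 3 held the motif (10.7%). A match describes the letters only.

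**Figure D3:**
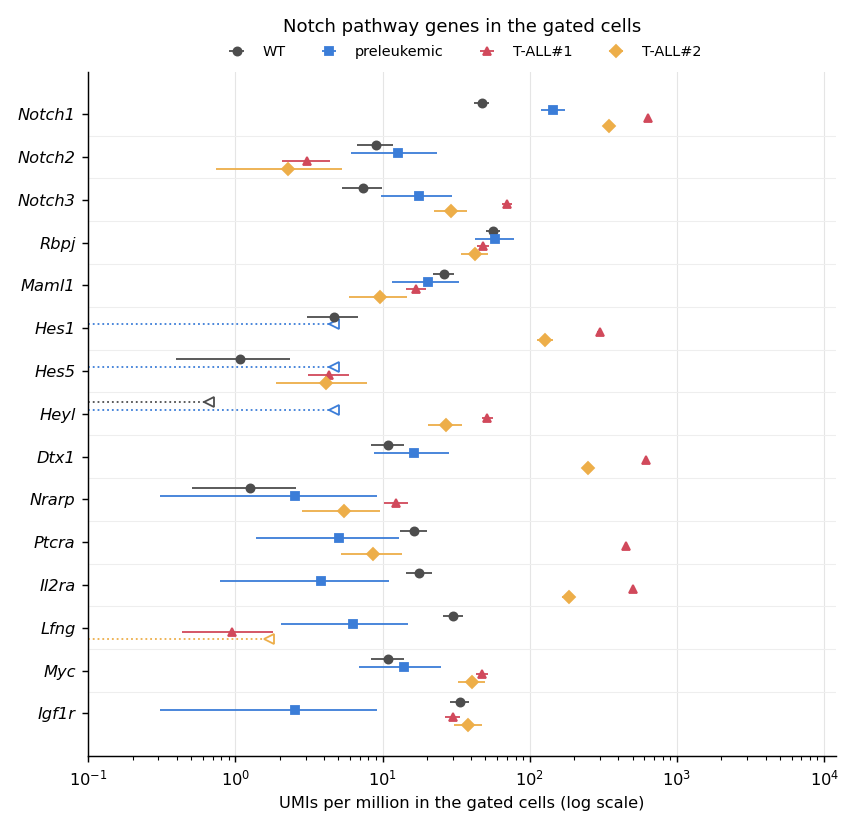
Levels of the 15 Notch pathway genes in the gated cells of each library, in CPM on a log axis, with exact Poisson 95% intervals; an open arrowhead marks the upper end of the interval where the count was 0. Both leukemias lie above WT for Notch1, Notch3, Hes1, Heyl, Dtx1, Nrarp, Il2ra and Myc, and T-ALL#1 alone lies above WT for Ptcra.

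The Notch genes were not limited to the gate. In the other resting cells of T-ALL#1, Notch1 was at 386 CPM, Dtx1 at 306, Hes1 at 198 and Il2ra at 209, below the gated cells of the same library. In T-ALL#2 the other resting cells held 278, 188, 146 and 188 CPM of these genes, and the empty droplets 262, 141, 95.4 and 133 CPM. The gated cells of T-ALL#2 exceeded the empty droplets for each of these 4 genes, and the part of free RNA in them was not tested. In WT the other resting cells held more than the gated cells, with Notch1 at 83.5 CPM and Dtx1 at 34.2 CPM.

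Thinning to 2000 UMIs gave each cell the same chance to show a gene. Among thinned gated cells, Notch1 had a UMI in 8.04% of WT cells (68 of 846), 21.3% of preleukemic cells (13 of 61), 68.4% of cells in T-ALL#1 (556 of 813) and 36.6% of those in T-ALL#2 (15 of 41). Dtx1 was found in 0.827%, 0%, 72.8% and 46.3% of cells, and Hes1 in 0.118%, 0%, 43.1% and 31.7%. Cells are not replicates, so the exact intervals of these shares cover counting within 1 library only. Rag1 was found in 81.8%, 54.1%, 61.4% and 12.2% of cells, and Ccr9 in 93.0%, 88.5%, 9.72% and 4.88%. Among the few B-like or myeloid-like cells, 0 of 5, 3 of 20, 0 of 14 and 0 of 8 held a Rag1 UMI. Of the 14 such cells of T-ALL#1, 2 held Notch1, 2 Hes1, 1 Dtx1, 1 Il2ra and 2 Gm266, and of the 8 of T-ALL#2, 1 held Hes1 and 0 held any of the other 4 genes. In the other resting cells, Notch1 was found in 55.4% for T-ALL#1 and 41.3% for T-ALL#2, and Dtx1 in 51.4% and 32.5%, so that the Notch1 share of the T-ALL#2 gate was not above that of the cells outside it.

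Notch genes were set against Rag1 within single thinned cells. At least 1 of 7 Notch genes (Notch1, Il2ra, Dtx1, Hes1, Ptcra, Notch3 and Heyl) was found in 95.6% of the gated T-ALL#1 cells and 80.5% of those of T-ALL#2. The shares were 23.0% of preleukemic cells and 13.4% of WT cells. These 7 leave out other listed genes, among them Notch2, Maml1 and Lfng, which were lower in both leukemias than in WT. Rbpj, also left out, was only slightly below WT. The shares are thus a description and no measure of the whole list. In T-ALL#1, Dtx1 was found in 73.3% of the cells with Rag1 and in 72.0% of those without, and Hes1 in 46.3% and 37.9%. Notch1 was found in 69.1% and 67.2%. In WT, 0.723% of cells with Rag1 held Dtx1. The Notch genes of T-ALL#1 were thus found in cells with Rag1 as well as in cells without it.

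**Figure D4:**
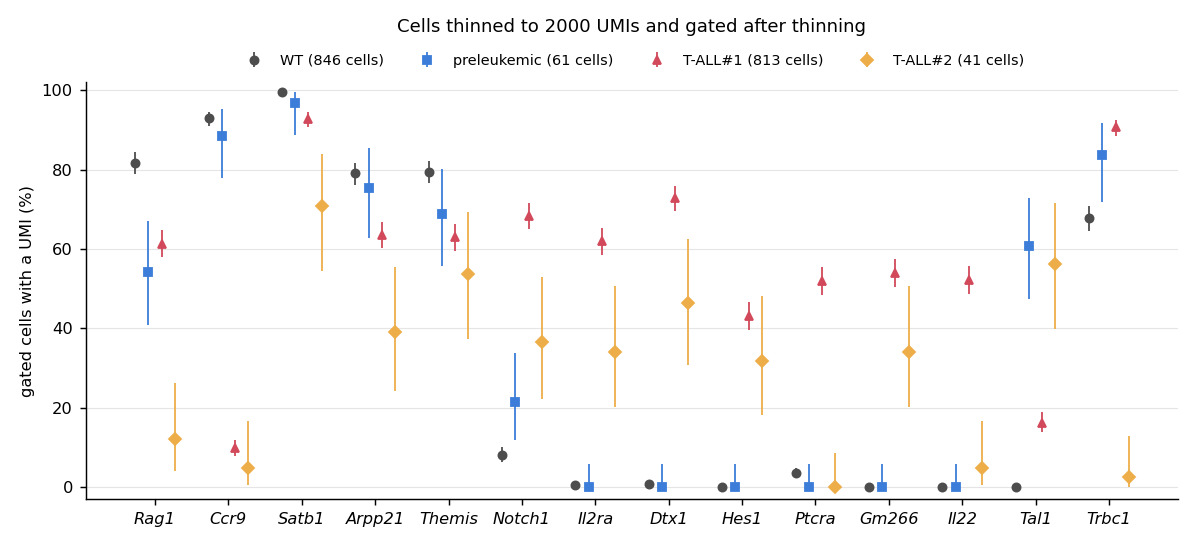
Share of gated cells with at least 1 UMI of each gene after every cell was thinned to 2000 UMIs and gated again, in percent, with exact Clopper-Pearson 95% intervals. Rag1 and Ccr9 are found in most WT cells, and Notch1, Il2ra, Dtx1, Hes1 and Gm266 are found in many cells of both leukemias and in few or no WT cells.

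Across all 3120 measured genes, 53 were at least 4-fold higher and 43 at least 4-fold lower in T-ALL#1 than in WT. In T-ALL#2, 39 were higher and 171 lower. TMM scaling, which sets the bulk of genes level, moved all log2 ratios to WT up by 0.11 in T-ALL#1 and 0.40 in T-ALL#2, and gave 72 higher and 90 lower genes in T-ALL#2. In both leukemias, 27 genes (0.865%) were at least 4-fold higher and 29 (0.929%) at least 4-fold lower. edgeR called 13 genes higher and 10 lower at an adjusted p under 0.05. In thinned cells, 34 genes were 4-fold higher in both and 24 lower, of which 25 and 19 were among the 27 and 29. There were 82000 UMIs in the thinned T-ALL#2 gate, so that 1 UMI stood for 12.2 CPM there.

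The 12 genes with the largest difference upward in both leukemias included Hes1 and Dtx1. Of the 12, 7 passed in edgeR, which called 0.417% of all measured genes higher. The 12 were ranked on the same contrast that edgeR tests, so this count is a description and no support. Gm266 (chr12:111484609-111485823) led, at 0 CPM in WT and in the preleukemic thymus, 496 in T-ALL#1 and 275 in T-ALL#2. Against the floor of 3 UMIs this was at least 923-fold and 511-fold higher, and the edgeR adjusted p was 0.00245. The other resting cells of the leukemias held Gm266 at 333 and 251 CPM. Gm973 was at 0.179, 31.6, 125 and 48.3 CPM (adjusted p = 0.0256), and Arhgef10l at 0.538, 1.27, 130 and 58.3 (adjusted p = 0.0157).

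Wdr25 was at 1.08 CPM in WT and 7.59 in preleukemic cells, against 171 in T-ALL#1 and 82.9 in T-ALL#2 (edgeR adjusted p = 0.00764). Fosb, which encodes an AP-1 subunit, was at 2.33, 6.33, 103 and 72.4 CPM (edgeR adjusted p = 0.00625). Sdc1, the gene of the cell-surface proteoglycan syndecan-1, was at 0.179, 1.27, 131 and 41.4 CPM and did not pass (adjusted p = 0.0904 in edgeR), nor did the phospholipid flippase gene Atp8a2 at 0.897, 6.33, 196 and 31.0 (adjusted p = 0.318). In each case both leukemias exceeded WT and the preleukemic library.

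Tal1, one of the transgenes, checked the labels. It was at 0 CPM in WT and 683 in preleukemic cells, against 93.6 in T-ALL#1 and 385 in T-ALL#2, and the transgene and the endogenous gene are not distinguished by these counts. Lmo2 was at 0.179, 6.33, 0.636 and 0 CPM, so hardly any RNA of the other transgene was counted. The order of Tal1 in the leukemias, with T-ALL#2 above T-ALL#1, was the reverse of that of Notch1, and the empty droplets of T-ALL#2 held 567 CPM of Tal1, more than its gated cells.

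The cytokine gene Il22 and its copy Iltifb were at 0 in WT and in the preleukemic library. Il22 was at 356 CPM in T-ALL#1 and 28.2 in T-ALL#2, and Iltifb at 421 and 61.9. Both were higher in the gated than in the other resting cells, which held 122 and 7.61 CPM of Il22. The 2 genes lie on opposite strands of chr10, and their annotated transcripts of 1110 and 1111 bases are 97.3% identical (94.3% in the last 300 bases), so reads could be divided between them and each level is uncertain. Their likeness extends upstream of the starts. A stretch of 57 bases from an ungapped alignment of the upstream sequences (RefSeq, GRCm38.p6) is shown, with its 3 mismatches in capitals. The identity over the whole aligned length is not given here.
Il22 (chr10:118204885-118204941, + strand): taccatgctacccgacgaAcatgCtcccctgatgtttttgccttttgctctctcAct
Iltifb (chr10:118295039-118295095, - strand): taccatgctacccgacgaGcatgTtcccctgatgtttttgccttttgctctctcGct
In thinned cells, Il22 was found in 52.2% of cells in T-ALL#1 and 4.88% of those in T-ALL#2, and in 0 of 846 WT cells, which allows up to 0.435% by the exact interval. The edgeR adjusted p was 0.371 for Il22 and 0.279 for Iltifb, with the leukemias far apart.

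Of the 12 genes with the largest difference downward, 7 passed in edgeR, which called 0.321% of all measured genes lower. This count too is a description, since the ranking used the same contrast. The globin genes Hba-a1 and Hbb-bs ranked first, at 177 and 175 CPM in WT and 0 elsewhere, but every WT UMI lay in 5 cells for Hba-a1 and in 4 for Hbb-bs. The 5 red cell markers summed to 386 CPM in WT and were at 0 in the other libraries. Ifi27l2a was at 449 CPM in WT and 186 in preleukemic cells, against 6.89 in T-ALL#1 and 5.01 in T-ALL#2 (edgeR adjusted p = 0.00245). Ccnd2 was at 347, 75.9, 4.88 and 9.56 CPM (adjusted p = 0.0233), and Bcl2 at 211, 51.9, 15.1 and 12.3 (adjusted p = 0.00694). Both leukemias lay below the preleukemic library for these 3 genes.

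Hist1h2ap, a histone H2A gene, was at 634 CPM in WT and 535 in preleukemic cells, against 40.1 in T-ALL#1 and 20.9 in T-ALL#2 (edgeR adjusted p = 0.00764). S100a10, whose product binds annexin A2, was at 389, 631, 23.5 and 0 CPM. Clec2d, a lectin gene, was at 254, 248, 35.9 and 4.55 CPM, and Wdr78 at 216, 78.4, 20.1 and 2.28. Cd52 was at 1301, 504, 164 and 169 CPM (adjusted p = 0.0512). S100a10, Clec2d and Wdr78 did not pass in edgeR (adjusted p from 0.325 to 0.43), and in each of them T-ALL#2 was lower than T-ALL#1.

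**Figure D5:**
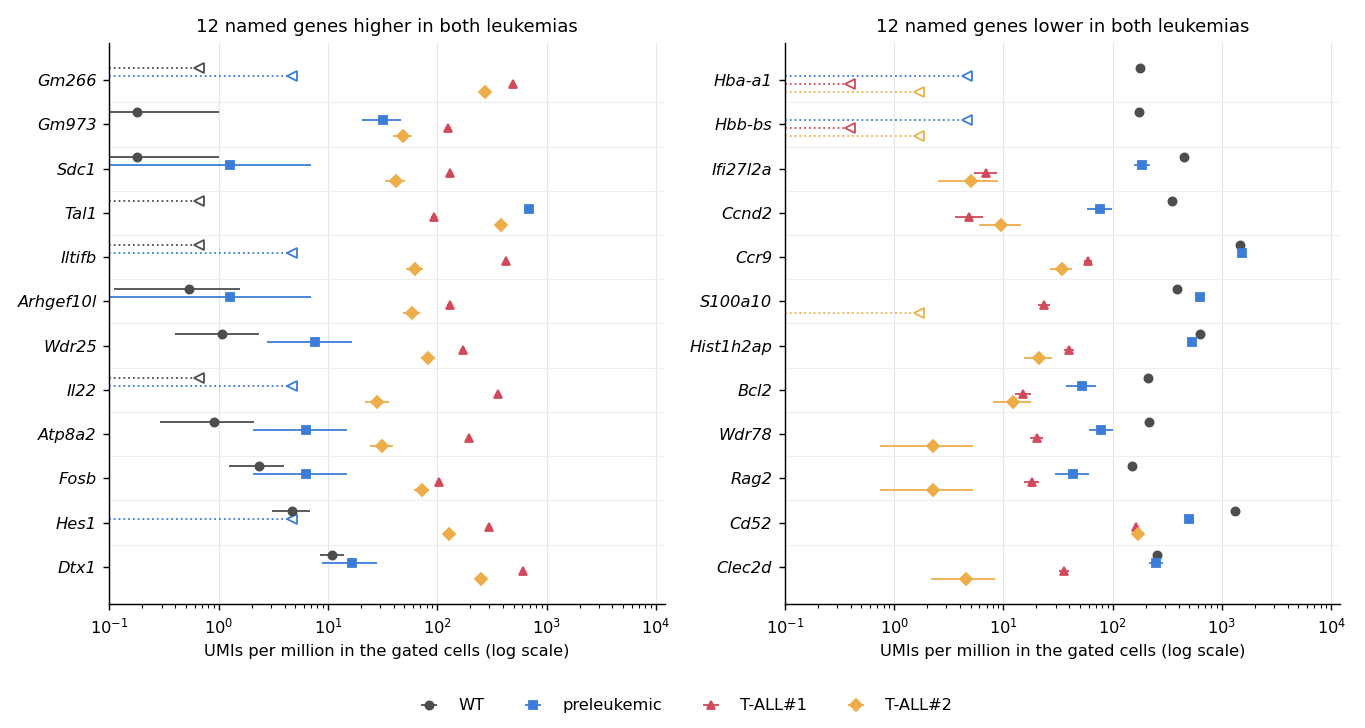
Levels of the 12 named genes higher and the 12 named genes lower in both leukemias than in WT, in CPM of the gated cells on log axes, with exact Poisson 95% intervals; an open arrowhead marks the upper end of the interval where the count was 0. Both leukemias lie on 1 side of WT in each panel, which the choice of the genes fixes, and the preleukemic library lies between WT and the leukemias for Ifi27l2a, Ccnd2 and Bcl2.

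The T cell receptor genes differed between the leukemias. Here and in the lists below, a gene could reach the mean of 50 CPM through a library where it is high, as Ptcra did through T-ALL#1. The counts of these lists are thus descriptions and no support. Of 12 TCR and CD3 chain genes, all measured, 1 was 4-fold higher in T-ALL#1 (Ptcra) and 1 lower (Trdc), against 1.7% and 1.38% of all measured genes. In T-ALL#2, 0 were higher and 2 lower (Trac and Trbc1), against 1.25% and 5.48%. Trbc1, a beta chain constant gene, was at 3194 CPM in WT and 4601 in preleukemic cells, against 1313 in T-ALL#1 and 1.37 in T-ALL#2, whose other resting cells and empty droplets held 0.780 and 0 CPM. The other beta constant gene, Trbc2, was at 6095, 4359, 6190 and 4168 CPM. Trdc, the delta chain constant gene, was at 55.6, 922, 0 and 150 CPM. Trac was at 854, 429, 382 and 199 CPM, and Cd3d at 1177, 992, 1479 and 1033. CD3 genes were thus counted in all libraries, while T-ALL#2 held 3 UMIs of Trbc1 and T-ALL#1 held 0 of Trdc.

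Of the 5 genes with the largest differences in opposite directions, Trdc was 2.69-fold above WT in T-ALL#2 (2.30 to 3.16) and at least 175-fold below in T-ALL#1. Ly6d, a surface protein gene, was at 134 CPM in WT and 612 in preleukemic cells, against 378 in T-ALL#1 and 42.3 in T-ALL#2. P2rx1, an ATP-gated channel gene, was at 51.5, 2.53, 204 and 22.3 CPM. Ncoa7 was at 59.7, 56.9, 159 and 26.9 CPM. B230118H07Rik was at 32.5, 21.5, 105 and 12.3 CPM, and its annotation on chr2 spans Rag1 on the same strand, so its counts are uncertain. Apart from Trdc, T-ALL#1 was above and T-ALL#2 below WT in each.

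Among regulators of the TAL1 complex, E proteins and Id proteins, 11 of 15 were measured. Tal1 reached the mean of 50 CPM through the leukemias alone, so the counts that include it are descriptions. In T-ALL#1, 1 was 4-fold higher (Tal1) and 1 lower (Id3), against 1.7% and 1.38% of all measured genes. In T-ALL#2, 2 were higher (Tal1 and Lmo4) and 0 lower, against 1.25% and 5.48%. Lmo4, a LIM-only gene, was at 103 CPM in WT and 44.3 in preleukemic cells, against 409 in T-ALL#1 and 517 in T-ALL#2 (edgeR adjusted p = 0.0951). Id3, an E protein inhibitor, was at 238, 5.06, 45.5 and 203 CPM, and Id1, another, at 3.77, 0, 24.1 and 91.1. The E protein genes Tcf3 (108, 161, 112 and 56.9 CPM) and Tcf12 (485, 622, 740 and 574 CPM) differed less. Of 12 T-lineage factor genes, 9 were measured and 0 were 4-fold away in T-ALL#1, where 1.7% of all genes were higher and 1.38% lower. In T-ALL#2, 2 were lower (Bcl11b and Tox), where 5.48% of all genes were. Bcl11b was at 1167, 1241, 1383 and 240 CPM and Tox at 230, 192, 59.8 and 41.9.

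Of 12 positive selection genes, 6 were measured, and 1 was 4-fold lower in T-ALL#1 (Itm2a, where 1.38% of all measured genes were) and 1 in T-ALL#2 (Cd5, where 5.48% were). Itm2a was at 296 CPM in WT and 60.7 in preleukemic cells, against 41.8 in T-ALL#1 and 127 in T-ALL#2, and Cd5, a gauge of TCR signal strength, at 197, 26.6, 95.1 and 23.2. Of 12 maturation and egress genes, 7 were measured, with 2 lower in T-ALL#1 (Il7r and Gimap4) and 0 in T-ALL#2, against the same shares of all genes. Il7r was at 107, 31.6, 16.3 and 36.4 CPM, and Gimap4 at 198, 135, 29.1 and 68.3. In all of these genes the other resting WT cells held more than the gated WT cells. Of 5 measured Bcl2 family genes of 12, Bcl2 alone was 4-fold lower in T-ALL#1 (1.38% of all genes), and Bcl2 and Bcl2l1 were in T-ALL#2 (5.48%). Bcl2 and Il7r reached the mean of 50 CPM through WT, where they are high. Bax, a pro-apoptotic gene, was at 83.6, 84.8, 183 and 168 CPM.

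Of 18 replication and mitosis genes outside the gate, 5 were measured and 0 were 4-fold away in either leukemia. Of all measured genes, 1.7% were higher and 1.38% lower in T-ALL#1, and 1.25% and 5.48% in T-ALL#2, so a count of 0 among so few says little. The median log2 ratios were 0.04 in T-ALL#1 and 0.37 in T-ALL#2, against -0.12 and -0.43 for all measured genes. Dut, a nucleotide metabolism gene, was at 116 CPM in WT and 84.8 in preleukemic cells, against 378 in T-ALL#1 and 370 in T-ALL#2, and Pcna at 79.8, 79.7, 82.0 and 81.0. Stmn1 went the other way. In thinned gated cells it was at 451 CPM in WT, 150 in T-ALL#1 and 122 in T-ALL#2, where 10 UMIs were counted. Of 12 cyclin and inhibitor genes, 6 were measured, with Ccnd2 4-fold lower in T-ALL#1 (1.38% of all measured genes) and Ccnd2 and Ccnd3 in T-ALL#2 (5.48%). Ccnd3, the cyclin D3 gene that double-positive blasts need, was at 1093, 464, 950 and 176 CPM. Of 14 quiescence genes, 12 were measured, and 1 was 4-fold higher in T-ALL#1 (Trib2, where 1.7% of all genes were) and 1 lower in T-ALL#2 (Txnip, where 5.48% were). Trib2 was at 59.0, 82.2, 253 and 93.8 CPM and Txnip at 344, 291, 142 and 71.0.

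Of 14 Myc network and ribosome biogenesis genes, 7 were measured, and 1 was 4-fold higher in T-ALL#2, where 1.25% of all genes were (Npm1, at 704 CPM in WT and 1061 in preleukemic cells, against 1592 in T-ALL#1 and 2826 in T-ALL#2). Of 15 glycolysis genes, 10 were measured, with median log2 ratios of 0.84 in T-ALL#1 and 0.89 in T-ALL#2, against -0.12 and -0.43 for all measured genes. Tpi1, the triosephosphate isomerase gene, was the member 4-fold higher in each (1.7% and 1.25% of all genes), at 50.03, 35.4, 248 and 247 CPM (edgeR adjusted p = 0.056). Pkm, the pyruvate kinase gene, was at 362, 321, 778 and 749 CPM, and Eno1, the enolase gene, went the other way at 405, 285, 288 and 245.

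Of 12 cytokine, receptor and Socs genes, 7 were measured. Besides Il22 and Iltifb, 1 was 4-fold lower in T-ALL#1 (Il21r, where 1.38% of all measured genes were) and 3 were in T-ALL#2 (Il21r, Ifngr1 and Socs1, where 5.48% were). Il21r, the IL-21 receptor gene, was at 278 CPM in WT and 129 in preleukemic cells, against 60.8 in T-ALL#1 and 20.5 in T-ALL#2. Of 9 MHC class I genes, 7 were measured, and H2-D1 was at 1352, 1112, 375 and 299 CPM while B2m was at 703, 760, 941 and 744. H2-D1 lay 4.52-fold below WT in T-ALL#2 and 3.61-fold below in T-ALL#1. Of 8 dissociation stress genes, 6 were measured, with Fos and Fosb 4-fold higher (1.7% of all genes) and Jun lower (1.38%) in T-ALL#1 and Fosb higher in T-ALL#2 (1.25%). Fos was at 17.6, 15.2, 159 and 69.2 CPM and Jun at 416, 237, 43.0 and 294, and the part of cell handling in these values was not tested.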

How the data were processed

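Thymocytes of 1 WT, 1 preleukemic and 2 leukemic mice were profiled by 10x Genomics 3′ sequencing. The deposited matrices hold UMI counts of 31053 genes, not normalized. Per the file headers, the authors used Cell Ranger 3.0.2 (called cells only), and for T-ALL#2 Cell Ranger 4 (all barcodes). The submitters' processing notes name mm10. The labels name several chemistry versions and tie none of them to a library. Coordinates are from GENCODE M21 on GRCm38, where 99.9% of identifiers were found.

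Barcodes with over 500 genes and under 10% mitochondrial UMIs were kept. In T-ALL#2 at least 3416 UMIs were required, which is 0.1 of the 99th percentile of the 10000 deepest barcodes. This gave 4220, 5576, 5773 and 1975 cells in the order WT, preleukemic, T-ALL#1 and T-ALL#2. Their gated cells held 5576648, 790397, 9434415 and 2196298 UMIs. No doublet caller was run. Doublets were limited only in the alternatives with an upper limit on genes or UMIs.

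UMIs were summed over gated cells and scaled to CPM, with exact Poisson intervals. Intervals of ratios came from exact binomial intervals. All intervals cover counting error only. A count of 0 was replaced by 3 UMIs in ratios, and a ratio so bounded counted only in the direction that it bounds. Genes needed a mean of 50 CPM over WT, T-ALL#1 and T-ALL#2, and 4-fold was the limit of size. With 1 WT library there is no test of either leukemia by itself. The quasi-likelihood test of edgeR 4.0.16 (TMM, robust, R 4.3.3) compared both leukemias with WT. It has 1 residual degree of freedom, all from the leukemias, and assumes that WT varies as they do. Its common biological coefficient of variation was 0.305. The test was also run on simulated counts whose means and dispersion came from these data. WT was simulated with the same dispersion as the leukemias, so that run cannot test the assumption about WT. DESeq2 1.42.0 was an alternative.

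Named genes were the 12 with the largest smaller-of-both ratio in each direction (without the genes of the gate, mitochondrial and sex-linked genes, and receptor segments), members of 20 gene lists past 4-fold in both or best known as regulators, and the 5 with the largest opposite ratios. List members past 4-fold in 1 leukemia alone were named after their values were seen. Members and lists were chosen with earlier results of these data known. Alternatives covered depth, gate, doublets, other cell types, scaling, weighting, filters and tools. 1 gene of the list of double-positive genes is not reported here.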

Additional observations from a re-analysis of the deposited data

How the results depend on the processing

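Counts of genes 4-fold different in both leukemias (27 higher, 29 lower) stayed within 1.5 times under each alternative of depth, gate, cell type, doublet, scaling and weighting. A mean of 10 CPM gave 105 and 135, and a 2-fold limit 110 and 197. Leaving out either leukemia gave 39 to 53 higher and 43 to 171 lower genes. Without T-ALL#1 the lower count was 171, and without T-ALL#2 the higher count was 53. The 27 higher genes were higher in all of 647 ratios that the alternatives gave, 643 of them past 4-fold. The 29 lower genes were lower in all of 680, 648 of them past 4-fold. The genes were chosen by this difference and the alternatives reuse the same libraries, so the shared direction is no independent support.

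The edgeR counts (13 higher, 10 lower) depended on the filter and the gate. Among 15687 genes with at least 1 UMI they were 505 and 486, with filterByExpr 171 and 186, and with DESeq2 on the same genes 248 and 162. At an unadjusted p under 0.05, edgeR gave 248 and 241. Cells with a UMI of Rag1 gave 57 and 45, thinned cells 34 higher, and 2 UMIs of each coreceptor 21 higher. The causes were not tested. edgeR without 1 leukemia has no residual degrees of freedom and was not run.

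The gated share fell in every library under a stricter gate, in the order WT, preleukemic, T-ALL#1 and T-ALL#2. It was 25.4%, 0.843%, 13.8% and 2.99% with 2 UMIs of each coreceptor, 30.5%, 1.38%, 21.9% and 2.99% with Rag1, and 36.2%, 1.81%, 18.2% and 4.15% with 0 cell cycle UMIs. Thinned cells gave 26.2%, 1.17%, 14.3% and 2.08%. Cells gated on thinned counts as a share of all kept cells, an alternative chosen after seeing the data, gave 20.0%, 1.09%, 14.1% and 2.08%. Without cells holding B or myeloid UMIs the share was 35.9% in WT, 25.1% in T-ALL#1 and 9.01% in T-ALL#2. Leaving out cells with red cell UMIs, also chosen after seeing the data, took Hba-a1 and Hbb-bs from the lower genes and left 29 higher and 27 lower. No paired analysis was possible because WT has 1 library and carries no replicate number.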
